A study of Mus musculus with 8 samples.

Results

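Expression of 9 Notch pathway genes was followed in 8 RNA-seq libraries of whole mouse cultures differentiated towards cortical-type progenitors. They were the ligands Dll1, Dll3, Dll4, Jag1 and Jag2, the receptors Notch1, Notch2 and Notch3, and Lfng, which encodes the glycosyltransferase Lunatic fringe. The genes were chosen by their symbols, and 9 of 9 were found among the 14954 genes of the deposited table. All cultures came from the mouse embryonic stem cell line A2lox.Cre Bcl6, which holds a tetracycline-inducible Bcl6 transgene, and all were differentiated in the defined medium DDM with 400 ng/ml cyclopamine, a hedgehog pathway inhibitor, from day 2 to day 10. At day 12 of differentiation, 4 cultures had received 1 µg/ml doxycycline for 24 h (Bcl6-induced) and 4 had received DMSO (control), and the comparison asked what raising this transcriptional repressor did to the Notch machinery. Both groups carry the transgene, which sits in 1 cell line, and no doxycycline-treated culture without it was among the samples, so effects of Bcl6 and of doxycycline cannot be told apart. The labels number the differentiations 1 to 4 in each group and say nothing more on how far cultures of a group are independent. The p-values below therefore rest on the spread among these 4 libraries a group, which may in part be technical.

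Notch signalling passes between touching cells. Delta and Jagged ligands on one cell bind Notch receptors on the next, the receptor is cut by proteases, and its intracellular part joins the DNA-binding protein Rbpj to switch on target genes such as Hes1, Hes5 and Hey1. In the embryonic cortex these targets hold progenitors undifferentiated, and cells that start to become neurons raise Delta ligands under proneural factors and so signal to their neighbours. Fringe enzymes add a sugar to the receptors in the Golgi and shift their response between Delta and Jagged ligands.

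The DNA just upstream of 3 of these genes is shown because Jag1 was the gene of the 9 that passed the test, Lfng had the lowest fold change and Dll1 split the induced libraries. The sequences are from RefSeq (GRCm38.p6, the mm10 build) and run 5′ to 3′ on the strand of the gene, ending before the first base of any RefSeq or GENCODE M21 start used here. They cover chr2:137116645-137116770 (minus strand) for Jag1, chr17:15376933-15377182 (minus strand) for Dll1 and chr5:140607091-140607319 (plus strand) for Lfng. The Dll1 sequence lies before its outer RefSeq start, 956 bases upstream of the GENCODE principal start. The stretch next to that principal start (chr17:15375977-15376073) is not printed, and the CAGCTG of Dll1 was found at the outer start only. Capitals mark matches, on either strand, to the E box CAGCTG and to TGGGAA, the core of the Rbpj motif.
Jag1 upstream: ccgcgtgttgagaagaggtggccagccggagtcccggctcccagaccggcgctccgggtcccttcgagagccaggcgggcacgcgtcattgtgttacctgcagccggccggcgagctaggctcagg
Dll1 upstream: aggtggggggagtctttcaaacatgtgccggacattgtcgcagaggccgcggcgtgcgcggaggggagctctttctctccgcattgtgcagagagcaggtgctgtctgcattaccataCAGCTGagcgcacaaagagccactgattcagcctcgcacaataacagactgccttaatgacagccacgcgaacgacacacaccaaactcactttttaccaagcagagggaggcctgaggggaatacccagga
Lfng upstream: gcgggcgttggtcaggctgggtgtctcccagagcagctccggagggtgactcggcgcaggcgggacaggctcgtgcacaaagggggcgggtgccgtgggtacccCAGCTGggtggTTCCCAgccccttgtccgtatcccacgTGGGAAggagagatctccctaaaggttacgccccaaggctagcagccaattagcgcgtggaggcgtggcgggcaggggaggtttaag
In 10 RefSeq promoter windows of the 9 genes, from 250 bases before to 50 bases after each start, TGGGAA was found in Lfng alone, at positions -135 and -108 from the start. It occurred in 25.6% of 32851 such windows of all genes, and 3.8% held at least 2 matches. CAGCTG, which was found in windows of Dll1, Dll3, Jag1 and Lfng, occurred in 16.3% of all windows. The letters TTCCTNGAA, a Bcl6-type motif, were in no window of the 9 genes and in 1.6% of all, and the looser TTCNNNGAA, which contains it, was in that of Notch3 and in 8.3% of all. A match is a description of these letters and was not tested as a binding site.

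Depth was 9.42 to 9.74 M reads per control library and 10.33 to 15.02 M per induced library. Bcl6 was at 6.61, 6.01, 7.12 and 6.21 CPM (counts per 1 M of the library's total) in controls 1 to 4, against 393, 422, 427 and 325 CPM in the induced cultures, so its level followed the labels in all 8 libraries. The count does not part the transgene from the cells' own Bcl6. Control 1 stood apart. The longer a gene's transcript, the lower it tended to be there: the Spearman rho of its deviation from the control mean with length was -0.58 over 14924 genes (genes are not independent replicates), while the rho was 0.14, 0.37 and 0.36 in controls 2 to 4. Of the markers of neural progenitors, 13 of 15 were in the table. They summed to 1806 to 2237 CPM in the controls and 1270 to 1616 CPM in the induced libraries. Of them, 7 were called lower and 1 higher, beside 2.26% and 4.55% of all genes. Emx1, a marker of the dorsal cortex, was not analysed here, while Pax6 was at 18.5 to 24.2 CPM in the controls and Emx2 at 3.81 to 5.31 CPM. Markers of undifferentiated stem cells were present too, with Pou5f1 at 456 to 613 CPM in the controls.

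Of the 9 genes, 1 was lower and 0 were higher in the induced cultures by limma at an adjusted p under 0.05 over all genes. Jag1 was the lower one. Among all 14954 genes 6.81% were called, 4.55% higher and 2.26% lower, so the count of 1 in 9 says little about the group as a whole. In 0 of the 9 were the groups free of overlap, against 17.1% of all genes (6.32% lower and 10.8% higher). The 9 log2 fold changes had a median of -0.06, beside 0.03 for all genes. The excess of higher calls among all genes, 681 against 338, depended on the scaling: it was 536 against 424 under median-of-ratios scaling, 501 against 474 under upper quartile scaling, and 793 against 728 with each library's trend on transcript length and GC content taken off. RNA came from whole cultures, so fewer cells of a type and less RNA per cell cannot be told apart.

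**Figure D1:**
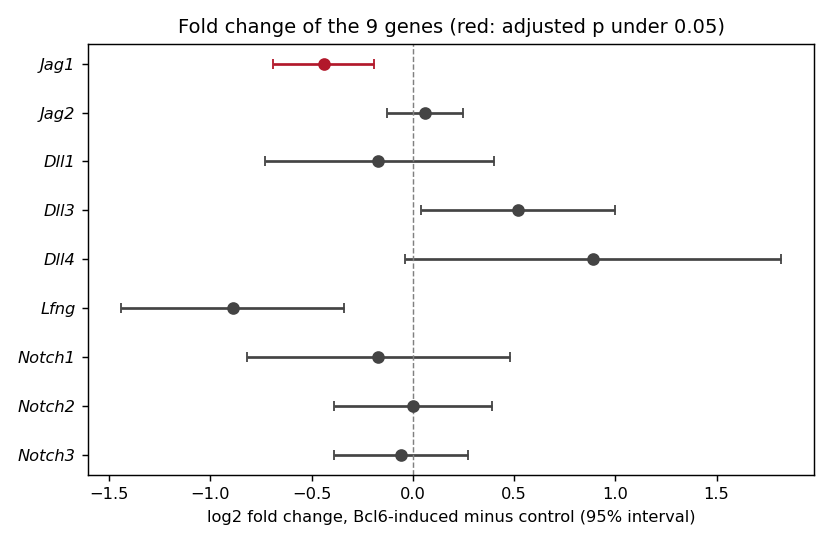
The log2 fold change (horizontal axis, induced minus control) of each of the 9 genes, with its 95% interval from limma as a bar. The interval lies below 0 for Jag1, called at an adjusted p of 0.041 (red), and for Lfng, which was not called (adjusted p = 0.058), and it lies above 0 for Dll3 (adjusted p = 0.18).

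The Jagged ligands parted from each other. Jag1 (ENSMUSG00000027276, chromosome 2, 137081456 to 137116644, minus strand) encodes a ligand of many progenitor tissues, and it stood at 60.6, 67.3, 77.2 and 80.7 CPM in controls 1 to 4 and at 46.8, 48.8, 53.5 and 61.2 CPM in induced libraries 1 to 4. The groups met at 1 point, with induced library 4 just above control 1, the lowest control. Jag1 fell to 0.74 of its control level, or by 0.44 ± 0.11 (SE) on the log2 scale. The 95% interval of the log2 fold change ran from -0.69 to -0.19, and the limma adjusted p was 0.041. Behind these values were 539 to 770 reads per library. The call was lost without any 1 of 6 libraries (controls 2, 3 and 4 and induced libraries 1, 2 and 3), with limma adjusted p values of 0.080 to 0.14, while the log2 fold change stayed between -0.52 and -0.38. With all 8 libraries it was lost at 1 of 11 other settings, with no variance trend (adjusted p = 0.079, over a range from 0.0023). Without control 1, where long transcripts were low, the adjusted p was 0.010.

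Jag2 (ENSMUSG00000002799, chromosome 12, 112907819 to 112929776, minus strand), the other Jagged ligand, had the tightest values of the 9 genes. It was at 27.0, 29.0, 32.5 and 28.7 CPM in the controls and 30.6, 32.3, 30.0 and 29.2 CPM in the induced libraries. The induced libraries all lay within the range of the controls. Its log2 fold change was 0.06 ± 0.09 with an interval from -0.13 to 0.25 (limma adjusted p = 0.71), and was -0.11 once the trend on length and GC content was removed (adjusted p = 0.46).

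The Delta ligands differed within the induced group. Dll1 (ENSMUSG00000014773, chromosome 17, 15367354 to 15376872, minus strand) is the ligand that differentiating neural progenitors present to their neighbours. It was at 40.6, 33.2, 34.5 and 36.0 CPM in the controls and at 22.9, 20.7, 42.4 and 52.6 CPM in induced libraries 1 to 4. Induced libraries 1 and 2 thus lay below every control and libraries 3 and 4 above every control, which left the means at 36.1 ± 3.21 CPM (SD, n = 4) and 34.7 ± 15.4 CPM (n = 4). The log2 fold change was -0.17 ± 0.26, with an interval from -0.73 to 0.40 (limma adjusted p = 0.74).

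Dll3 (ENSMUSG00000003436, chromosome 7, 28293553 to 28302238, minus strand) encodes a divergent Delta protein held mostly inside the cell, which damps Notch in the cell that makes it. It was at 28.9, 18.6, 19 and 22.6 CPM in the controls and at 25.1, 22.5, 41.4 and 41.6 CPM in the induced libraries. Libraries 3 and 4 were again the high ones, and libraries 1 and 2 lay among the controls. The fold change of 0.52 ± 0.22 on the log2 scale (interval 0.04 to 1.00) had an unadjusted p of 0.036 and did not pass the adjustment over all genes (limma adjusted p = 0.18). It ranged from 0.38 to 0.68 when single libraries were left out, with a lowest adjusted p of 0.069 without control 1.

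Dll4 (ENSMUSG00000027314, chromosome 2, 119325784 to 119335962, plus strand), a ligand best known from sprouting blood vessels, was the scarcest of the 9 genes, with 14 to 105 reads per library. It was at 3.86, 3.21, 2.31 and 1.5 CPM in the controls and at 2.76, 2.91, 6.41 and 10.2 CPM in the induced libraries. Again only induced libraries 3 and 4 exceeded the controls. Its log2 fold change of 0.89 ± 0.42 (interval -0.04 to 1.82) did not pass the test (limma adjusted p = 0.23).

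**Figure D2:**
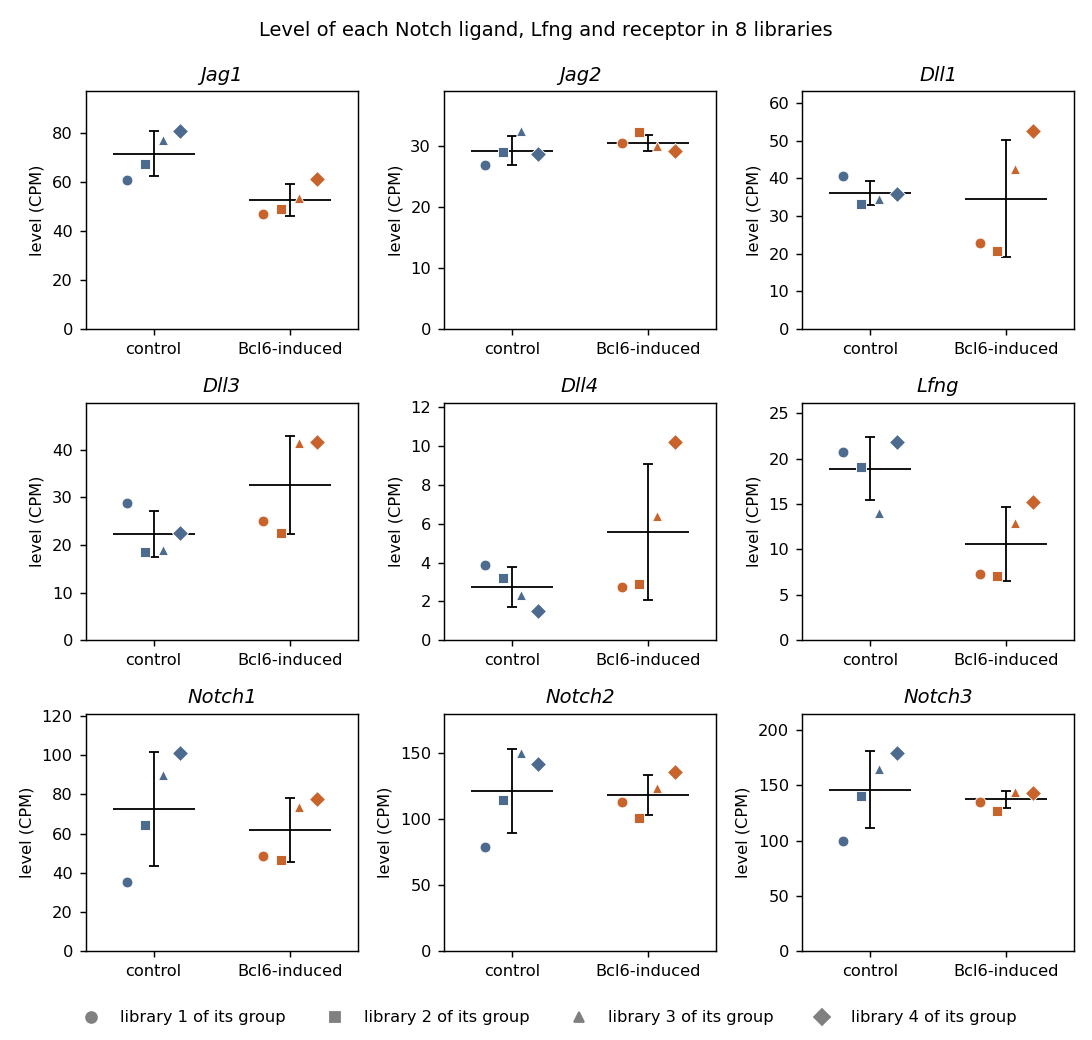
Level in CPM (vertical axes from 0) of each of the 9 genes in the 4 control and 4 induced libraries, with 1 marker shape per library number and the mean ± SD of each group as black lines. Induced libraries 3 and 4 lie above libraries 1 and 2 in every gene but Jag2, and the receptors are lowest in control 1.

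The same libraries differed in Neurog1 and Neurog2, proneural factors that are known to switch on Delta ligands. In induced libraries 1 to 4 Neurog2 was at 12.8, 12.3, 21.1 and 24.6 CPM, against 13.8 to 22.3 CPM in the controls, and Neurog1 at 3.56, 2.56, 15.2 and 11.8 CPM against 4.57 to 8.22 CPM. Neither gene was called between the groups (limma adjusted p = 0.94 and 0.96). In both, as in Dll1, libraries 3 and 4 lay above libraries 1 and 2. All 16 markers of basal progenitors and young neurons, a list that includes these factors, were in the table. They summed to 1330, 1267, 1383 and 1607 CPM in the induced libraries against 785 to 969 CPM in the controls. Of the 16, 8 were called higher and 0 lower, beside 4.55% and 2.26% of all genes. The part of the proneural factors in the Delta values was not tested.

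Per kilobase (kb) of the principal transcript, which lets genes be compared, the 5 ligands together came to 39.5, 34.9, 37.6 and 39.1 CPM per kb in the controls and 31.0, 30.2, 44.8 and 49.9 CPM per kb in the induced libraries. The sum counts Dll3, whose protein is held mostly inside the cell, and was not also taken without it. With Dll3 counted, the sum lay below every control in induced libraries 1 and 2 and above every control in libraries 3 and 4. Jagged ligands made up 16.1, 17.7, 20.1 and 20.0 of it in the controls and 14.3, 15.0, 15.4 and 16.6 in the induced libraries. The Delta share of the ligand level was 59.3, 49.4, 46.5 and 48.8% in the controls and 53.8, 50.2, 65.6 and 66.7% in the induced libraries, so only libraries 3 and 4 exceeded control 1. Jag1 went from 33.8 ± 4.41% of the ligand level (SD, n = 4) to 24.7 ± 3.72%, and Dll3 from 22.4 ± 3.87% to 31.6 ± 2.84%. The Dll3 share was 28.0, 20.3, 19.3 and 22.0% in the controls and 30.8, 28.5, 35.3 and 31.8% in the induced libraries. These groups did not overlap, though control 1 came close to induced library 2. For the Jag1 share they did overlap, with 27.4% in control 1 and 28.8% in induced library 2. The shares were not tested, because they are built from the same values as the genes.

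**Figure D3:**
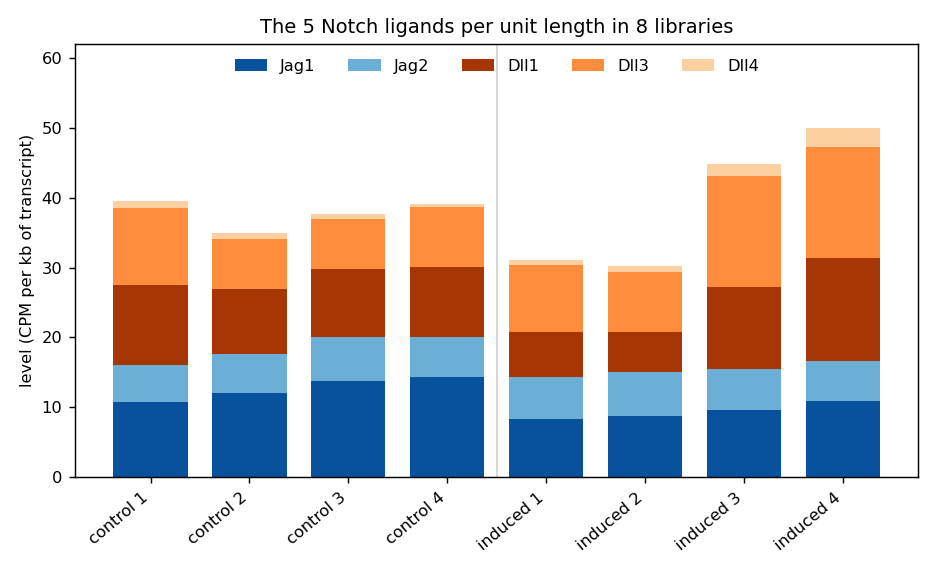
Stacked levels (vertical axis, CPM per kb of principal transcript) of the 5 ligands in each of the 8 libraries, with Jagged ligands in blue and Delta ligands in orange to brown. The total is 30.2 to 31.0 in induced libraries 1 and 2 and 44.8 to 49.9 in induced libraries 3 and 4, on either side of the controls at 34.9 to 39.5.

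Lfng (ENSMUSG00000029570, chromosome 5, 140607320 to 140615545, plus strand), whose upstream sequence with TGGGAA in both orientations is printed above, was at 20.7, 19.1, 14 and 21.8 CPM in the controls. It was at 7.27, 7.06, 12.9 and 15.2 CPM in the induced libraries. Libraries 1 and 2 were far below every control, and only induced library 4 exceeded the lowest control, control 3. Its mean was 18.9 ± 3.46 CPM (SD, n = 4) in the controls and 10.6 ± 4.10 CPM (n = 4) in the induced cultures, a ratio of 0.56. On the log2 scale this was -0.89 ± 0.25, with an interval from -1.44 to -0.34, and it narrowly missed the threshold (limma adjusted p = 0.058).

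Whether Lfng was called depended on how the values were processed. It was called lower at 5 of 11 other settings with all 8 libraries, over which the adjusted p ran from 0.0095 with array weights to 0.099 with no variance trend. Leaving out single libraries gave adjusted p values between 0.027, when induced library 4 was left out, and 0.17, when induced library 1 was, and log2 fold changes from -1.09 to -0.73. The direction was the same in all of these. Markers of neural progenitors, which express Lfng, summed to 1270, 1287, 1616 and 1608 CPM in induced libraries 1 to 4 against 1806 to 2237 CPM in the controls, low and high in the same libraries as Lfng. Their part in the Lfng and Jag1 values was not tested. The other Fringe genes were not called. Mfng was at 23.6, 21.6, 20.9 and 24.8 CPM in the controls and 18.2, 18.8, 28.7 and 33.2 CPM in the induced libraries (log2 fold change 0.08, limma adjusted p = 0.84), with the same low and high libraries as Dll1. Rfng was at 24.4 ± 3.07 and 24.2 ± 0.70 CPM (log2 fold change -0.01, adjusted p = 0.98).

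Dll1, Dll3 and Lfng are also strong genes of the presomitic mesoderm. Of 11 markers of that tissue 5 were in the table. They summed to 27.8 to 36.8 CPM in the controls and 79.9 to 88.3 CPM in the induced libraries. Most of this sum was T, at 20.9 ± 3.13 and 59.9 ± 2.29 CPM. T, Uncx and Cdx2 were called higher and 0 lower, beside 4.55% and 2.26% of all genes. Tbx6, a defining member, was at 0.85 to 3.11 CPM in the controls and 0.80 to 1.35 CPM in the induced libraries. The other 6, Msgn1, Mesp1, Mesp2, Hes7, Ripply2 and Meox1, among them defining markers of this tissue, were not analysed here. The part of such cells in the values of Dll1, Dll3 and Lfng was not tested.

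The receptors differed more within the controls than between the groups. Notch1 (ENSMUSG00000026923, chromosome 2, 26457903 to 26516663, minus strand), the main receptor of cortical progenitors, was at 35.5, 64.4, 89.9 and 101 CPM in the controls and 48.6, 46.7, 73.7 and 77.8 CPM in the induced libraries. Control 1 was the lowest of all 8 and control 4 the highest. The log2 fold change was -0.17 ± 0.29 (interval -0.82 to 0.48, limma adjusted p = 0.77).

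Notch2 (ENSMUSG00000027878, chromosome 3, 98013527 to 98150361, plus strand) was at 79.2, 115, 150 and 142 CPM in the controls and 113, 101, 124 and 136 CPM in the induced libraries. Notch3 (ENSMUSG00000038146, chromosome 17, 32120820 to 32166852, minus strand), known from radial glia and from pericytes, was at 100, 140, 165 and 179 CPM and at 135, 127, 144 and 143 CPM. In both genes control 1 lay below all other libraries, and the induced libraries sat within the range of the controls. The log2 fold changes were 0.00 ± 0.18 (interval -0.39 to 0.39) for Notch2 and -0.06 ± 0.15 (interval -0.39 to 0.27) for Notch3, with limma adjusted p values of 1.0 and 0.85.

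The receptor transcripts are long, with exons covering 14.23 kb in Notch1, 10.78 kb in Notch2 and 8.09 kb in Notch3, so the length trend of control 1 touches them. In control 1 they lay at -0.93, -0.58 and -0.51 on the log2 scale from the control mean, and at -0.61, -0.34 and -0.43 with the trend on length and GC content taken off. With the trend taken off, all 3 receptors were thus nearer to the control mean in control 1 and still below it. Without control 1 the log2 fold changes were -0.48, -0.19 and -0.23 for Notch1, Notch2 and Notch3 (limma adjusted p = 0.14, 0.27 and 0.099), in each case lower than with it and still not called. Notch1 was called lower at 1 of 11 other settings with all 8 libraries, the length and GC trend taken off together with the differentiation number as a block (-0.36, adjusted p = 0.041). Its adjusted p reached 0.80 among these settings.

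**Figure D4:**
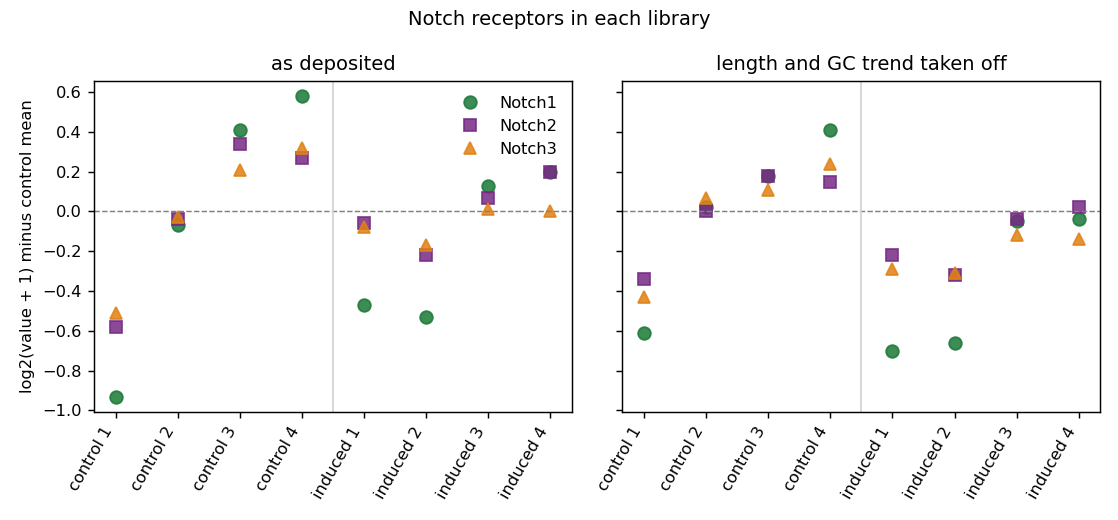
Level of Notch1, Notch2 and Notch3 in each library on a log2 scale, minus the mean of the 4 controls (vertical axis), as deposited (left) and with each library's trend on transcript length and GC content taken off (right). Control 1 is lowest for Notch2 and Notch3 in both panels, while Notch1 in induced libraries 1 and 2 falls below control 1 once the trend is taken off.

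Reads on the strand opposite to a receptor or ligand cannot be set aside, since use of the strand in counting is not given in the sources used here. Exons on the opposite strand shared 1068 and 414 bases with Notch1 (0610009E02Rik and Gm13568) and 867 with Dll1 (A930024N18Rik). They shared 488 bases with Notch3 (Gm17276) and 214 with Dll4 (Gm14207). On the same strand, Gm42820 shared 541 exon bases with Notch2. Markers of pericytes and smooth muscle, cells that express Notch3 and Jag1, summed to 95.2 to 133 CPM in the controls and 181 to 223 CPM in the induced libraries (6 of 10 in the table, 2 higher, Acta2 and Kcnj8). Most of this sum was Acta2, at 75.7 ± 15.5 and 149 ± 14.5 CPM, while Kcnj8 was at 1.48 ± 0.34 and 2.82 ± 0.41 CPM. Pdgfrb of that list was at 15.2 ± 2.21 and 16.5 ± 0.79 CPM. Rgs5, Cspg4, Tagln and Abcc9 of the list were not analysed here. Endothelial markers, relevant to Dll4 and Jag1, summed to 113 to 135 and 131 to 170 CPM (10 of 12 in the table, Flt1 higher and Tek lower). Non-neural epithelial markers, relevant to Jag1 and Jag2, summed to 740 to 867 and 982 to 1116 CPM (8 of 8 in the table, 5 higher), and those of the otic placode to 32.5 to 47.6 and 45.0 to 47.9 CPM (6 of 7 in the table, 0 called). Markers of undifferentiated stem cells summed to 2153 to 2319 and 2049 to 2386 CPM (10 of 10 in the table, 4 higher and 1 lower). This sum covers opposite shifts. Nanog, Zfp42, Esrrb and Klf4 were higher and Tdgf1 was lower, beside 4.55% and 2.26% of all genes. Tdgf1 was at 815 ± 62.9 and 605 ± 38.6 CPM, and Nanog at 172 ± 13.1 and 233 ± 7.0 CPM. The calls in each of these lists stand beside 4.55% of all genes called higher and 2.26% called lower. Only markers in the table entered these sums, and the part of such cells in the levels of the 9 genes was not tested.

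Ordered by mean CPM per kb of principal transcript, the controls ran from Notch3 (18.2 ± 4.29, SD, n = 4) through Jag1 (12.7 ± 1.64), Notch2 (11.6 ± 3.06), Dll1 (10.1 ± 0.90), Dll3 (8.50 ± 1.82), Lfng (8.20 ± 1.5), Notch1 (7.67 ± 3.08) and Jag2 (5.74 ± 0.45) to Dll4 (0.73 ± 0.27). The ranges of neighbours in this order overlapped, except those of Jag2 and Dll4. Within libraries, Notch3 lay above Jag1, and Dll1 above Dll3, in each of the 4 controls. Notch3 was the most abundant receptor, with 49.1 ± 2.66% of the receptor level in the controls and 49.3 ± 2.98% in the induced libraries. In the induced libraries Notch3 (17.1 ± 0.99) was again the highest, followed by Dll3 (12.5 ± 3.92), Notch2 (11.3 ± 1.42), Dll1 (9.68 ± 4.30), Jag1 (9.36 ± 1.14), Notch1 (6.50 ± 1.72), Jag2 (5.97 ± 0.25), Lfng (4.60 ± 1.78) and Dll4 (1.48 ± 0.94). There the ranges of Jag1 and Notch1, and those of Lfng and Dll4, did not overlap, and those of the other neighbours did, though Notch3 lay above Dll3 within each of the 4 libraries. The receptors summed to 23.8, 35.2, 44.4 and 46.5 CPM per kb in the controls and 32.7, 30.4, 37.5 and 39.0 in the induced libraries, with the induced values inside the range that control 1 widens.

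For each of the 9 genes, the 2 genes whose log2 levels were most like it over the 8 libraries were found by Pearson r among the 13553 genes whose mean log2 CPM was 1 or more. These r values describe libraries that share groups, depth and the length trend, and they carry no test. Lfng was closest to Ptn (r = 0.993), a growth factor of radial glia, and Ntn1 (0.991), the guidance cue netrin, both of which fell (limma adjusted p = 0.026 and 0.041). Jag1 was closest to Mrc2 (0.979), an endocytic collagen receptor that fell (adjusted p = 0.046), and to the transcription factor Nfib (0.976), which was not called (adjusted p = 0.12).

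Notch2 was closest to the spindle gene Aspm (r = 0.997) and the cilium motor gene Dync2h1 (0.996), Notch1 to Spata13 (0.992) and Usp6nl (0.987), and Notch3 to 2900026A02Rik (0.986) and Gm43143 (0.984). All of these but Gm43143 have exons covering 8.06 to 16.35 kb. None of the 6 was called. Dll1 was closest to Hp1bp3 (0.972) and the dorsal neural tube factor Msx3 (0.962), Dll3 to Kif19a (0.977) and Midn (0.971), Dll4 to Fbxo46 (0.967) and the homeobox gene Dlx1 (0.945), and Jag2 to Lrp5 (0.940) and Zfp382 (0.929). None of these 8 was called either. The receptors also resembled one another, with an r of 0.95 in each of the 3 pairs.

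Beyond the 9 genes, 48 of 50 other genes of the Notch pathway were in the table. Of these, 3 were higher, 4 were lower and 41 were not called, with a median log2 fold change of 0.06. The 7 called stand beside 6.81% of all genes called in either direction, and the list was not tested as a whole. The genes are given by role, from the signal-sending cell to the target genes.

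In the sending cell, 1 of 6 genes for ubiquitination and endocytosis of ligands was called. Neurl1a, an E3 ubiquitin ligase of the Neuralized family, which marks ligands for endocytosis, was at 17.1, 13.4, 16.2 and 17.9 CPM in the controls and 26.4, 24.3, 24.0 and 23.5 CPM in the induced libraries. Every induced library lay above every control. Neurl1a rose by 0.61 ± 0.11 on the log2 scale (limma adjusted p = 0.010) and kept its call without any 1 of the 8 libraries (adjusted p of at most 0.048). Mib1, the ligase that Delta ligands chiefly need, was at 293 ± 64.4 CPM (SD, n = 4) in the controls against 284 ± 28.3 CPM after induction (adjusted p = 0.95), and was lowest in control 1, at 199 CPM.

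At the receptor, 0 of 5 genes for its glycosylation and furin cleavage and 0 of 8 for its later proteolysis were called. Pofut1, which adds the fucose that Fringe enzymes extend, was at 58.4 ± 5.85 and 58.1 ± 2.15 CPM (log2 fold change 0.00 ± 0.08). Adam10, the sheddase, was at 136 ± 14.9 and 133 ± 6.44 CPM (-0.02 ± 0.09). Notch4, the remaining receptor, was low, at 6.97 ± 1.27 and 8.57 ± 1.18 CPM (limma adjusted p = 0.27). Neither of the non-canonical ligands Dlk1 and Dner was called (adjusted p = 0.48 and 0.13). Dlk2 was not analysed here.

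In the nucleus, 1 of 10 genes of the Rbpj complex and its corepressors was called. Kat2b, a histone acetyltransferase, rose from 45.7 ± 5.77 to 59.2 ± 3.02 CPM (SD, n = 4), a log2 fold change of 0.38 ± 0.10 (limma adjusted p = 0.046). This call was lost without any 1 of 7 libraries, control 1 being the exception, and under 4 other settings. Rbpj itself was at 126, 154, 161 and 193 CPM in the controls and 215, 203, 179 and 205 CPM in the induced libraries. Only induced library 3 lay within the range of the controls, and the log2 fold change of 0.35 ± 0.12 was not called (adjusted p = 0.098).

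Of the 9 inhibitors and genes of receptor turnover, 1 rose and 1 fell, both of the Deltex family of E3 ligases that act on the receptor. Dtx4 was at 155, 159, 126 and 187 CPM in the controls and 67.8, 61.6, 103 and 119 CPM in the induced libraries. Every induced library was below every control, and libraries 1 and 2 were the lowest, as for Lfng. Dtx4 fell by 0.87 ± 0.20 on the log2 scale (limma adjusted p = 0.028), a call that was lost without any 1 of controls 2 and 4 and induced libraries 1 and 2 (adjusted p of up to 0.094), and with no variance trend (adjusted p = 0.066). Dtx2 rose from 27.1 ± 1.00 to 33.7 ± 2.06 CPM (0.31 ± 0.08, adjusted p = 0.044), and it was not called under 6 of 11 other settings or without any 1 of 6 libraries (controls 2 to 4 and induced libraries 1 to 3, adjusted p of up to 0.14). Numb, the best known inhibitor of the receptor, was at 42.5 ± 5.92 and 43.3 ± 1.29 CPM (adjusted p = 0.86).

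Of the genes listed as targets, 7 were in the table, of which 3 fell and 0 rose. Hes5 was at 23.0, 17.6, 13.8 and 14.9 CPM in controls 1 to 4 and 0.20, 0.30, 6.06 and 6.12 CPM in induced libraries 1 to 4 (log2 fold change -3.66 ± 0.95, limma adjusted p = 0.044). The induced libraries fell into the same pairs as for Lfng and Dll1, here all below the controls. Hey1 was at 36.2, 33.7, 23.3 and 29.0 CPM against 14.7, 12.9, 18.4 and 20.8 CPM (-0.88 ± 0.17, adjusted p = 0.015). Nrarp, a feedback inhibitor of the pathway, was at 6.71, 4.86, 4.97 and 7.57 CPM against 1.60, 2.00, 3.11 and 4.01 CPM (-1.22 ± 0.28, adjusted p = 0.029). In both, induced libraries 1 and 2 were again the lowest. The Hes5 call was lost without any 1 of 6 libraries (the controls and induced libraries 1 and 2, limma adjusted p of up to 0.13). The Hey1 call was lost without control 2 or induced library 1 or 2 (up to 0.061), and that of Nrarp without control 2 or 4 or induced library 1 or 2 (up to 0.094). With all 8 libraries and no variance trend, Hes5 and Nrarp also lost their calls (limma adjusted p = 0.09 and 0.051), while Hey1 did not (adjusted p = 0.039).

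The remaining genes of the target list did not pass the test, and whether each listed gene responds to Notch in these cells was not tested. Heyl, another Rbpj target, was at 2.81, 2.55, 1.56 and 3.36 CPM in the controls and 0.10, 0.20, 1.1 and 1.55 CPM in the induced libraries, down to 1 read in a library (limma adjusted p = 0.067). Hes1 was at 38.7, 35.5, 24.9 and 30.2 CPM against 30.2, 32.3, 28.9 and 26.6 CPM, with the induced values inside the control range (adjusted p = 0.64). Hey2 and Hes6 had adjusted p values of 0.14 and 0.84. Hes7 was not analysed here.

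**Figure D5:**
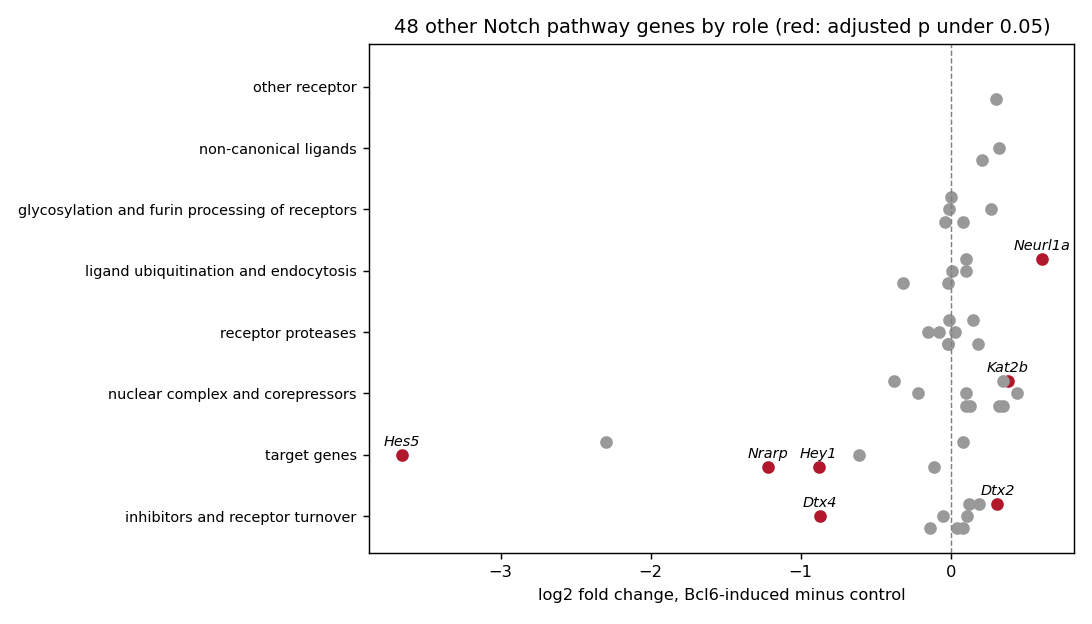
The log2 fold change (horizontal axis, induced minus control) of the 48 other Notch pathway genes, 1 point per gene, grouped by role (vertical axis). The 7 genes called at an adjusted p under 0.05 are red and named, and Hes5 at -3.66 and Nrarp at -1.22 are the lowest of these.

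Side by side, the induced libraries with the least Hes5 (1 and 2) also had the lowest Lfng, Dll1 and Dtx4 of all 8, and the libraries with the highest Dll1, Dll3 and Dll4 (3 and 4) kept more Hes5. Jag1 followed this split only weakly, with 46.8 and 48.8 CPM in induced libraries 1 and 2 and 53.5 and 61.2 CPM in libraries 3 and 4. Notch1 followed it more clearly, with 48.6 and 46.7 CPM against 73.7 and 77.8 CPM, though control 1 was lower still at 35.5 CPM. Notch2 (113 and 101 against 124 and 136 CPM) and Notch3 (135 and 127 against 144 and 143 CPM) followed it weakly, and Jag2 did not. Bcl6 did not follow the split either, with 393 and 422 CPM in libraries 1 and 2 and 427 and 325 CPM in libraries 3 and 4. The pairs were seen in the data and are not groups of the study, so no test was made between them.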

How the data were processed

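RNA from 8 cultures (4 control, 4 Bcl6-induced) was sequenced from stranded TruSeq mRNA libraries, per the labels' protocols. Per the submitters' processing notes, the tools were HTSeq 0.9.1, STAR 2.5.3a and edgeR 3.20.1 (roles and order are not stated) and the build was mm10. Whether counting used the strand is not given in the sources used here. The authors deposited a score per gene and library: whole numbers that sum to 19.93 to 19.96 M in every library. For 99.61 to 99.84% of values per library they were reads times a fixed step, rounded up, which gave the depths. Decimal commas had become column breaks in the deposited table (36 cells per line under 24 header names), and each line was rejoined by matching its 8 values to its own CPM (1 line, that of Bcl6, started 2 cells earlier). The authors' statistics were not used.

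CPM is the deposited value divided by its library's total. The test was limma 3.58.1 (R 4.3.3) on log2(value + 1) with a variance trend, two-sided, adjusted by Benjamini-Hochberg over 14954 genes, with no filter on low values (the lowest mean was 15.1 scaled reads) and a threshold of 0.05. Fold changes are on this scale and understate those of scarce genes. The plan named edgeR for raw counts, which these are not. The test was tried on simulated data. Lengths and positions are from GENCODE M21, where the principal transcript is the longest with a principal label, and 14924 genes had a length and a GC content. Groups do not overlap where every library of one lies above every library of the other.

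The genes and lists were chosen with earlier results of these data known. Named were the 9 genes, Bcl6, Hes1, Hes5, Hey1, pathway genes that passed the test, the 2 genes most like each of the 9, and markers that define a list; other pathway genes were named after their values were seen. Alternatives were the differentiation number as a block, other pseudocounts (0.1 and 10), scalings, a filter at a mean of 100 scaled reads, no variance trend, array weights, a spline trend on length and GC taken off, and leaving out each library. Voom on the recovered reads, and the trend taken off together with the block, were added after seeing the data.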

Additional observations from a re-analysis of the deposited data

How the results depend on the processing

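With pseudocounts of 0.1 and 10, none of the 9 genes changed direction or call. Counts of the 9 genes called lower, 1 as reported, were 2 with upper quartile scaling, array weights, the length and GC trend taken off, and voom on recovered reads, 3 with that trend taken off together with the replicate block, and 0 with no variance trend. None of the 9 was called higher at any setting. Lfng was called at -0.94 (upper quartile scaling), -1.12 (array weights), -0.97 (trend taken off, with or without the block) and -0.92 (voom), with limma adjusted p values of 0.048, 0.0095, 0.017 to 0.028 and 0.043. Jag1 kept -0.44 but lost its call with no variance trend (adjusted p = 0.079). With the trend taken off, Jag2 was at -0.11 with and without the block, and Notch1 was called at -0.36 with the block only.

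All genes called, 1019 as reported, numbered 2507 with array weights and 1573 with the trend taken off and the block. Other pathway genes called higher, 3 as reported, numbered 1 with the block, median-of-ratios scaling, upper quartile scaling or no variance trend and 5 with array weights, and those called lower, 4 as reported, numbered 1 with no variance trend. The cause of these shifts was not tested.

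Leaving out single libraries gave 308 (without induced library 1) to 1697 (without control 1) genes called, 0 to 2 of the 9 genes lower, and 1 to 3 other pathway genes higher and 0 to 5 lower. The log2 fold changes ranged from -0.52 to -0.38 for Jag1, -1.09 to -0.73 for Lfng, -0.40 to 0.04 for Dll1, 0.38 to 0.68 for Dll3, 0.53 to 1.15 for Dll4, 0.02 to 0.11 for Jag2, -0.48 to 0.03 for Notch1, -0.19 to 0.11 for Notch2 and -0.23 to 0.05 for Notch3.

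The labels give both groups differentiation numbers 1 to 4, but libraries with the same number did not deviate together in every pair (correlations of 0.030, 0.011, -0.028 and 0.374 over 11869 genes), and control 1 correlated best with induced library 2 (0.321). With the number as a block 827 genes were called, and the calls of the 9 genes did not change. Tests on whole reads by count models were not run, because the deposited values are not raw counts. Dll4, with 14 to 105 reads per library, was the gene of the 9 most limited by depth, and was left out by the filter.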
